A study of Mus musculus with 66 samples.

Results

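The vomeronasal type 2 receptor genes (Vmn2r) were examined as a family for histone H3 lysine 9 trimethylation (H3K9me3) and histone H3 lysine 36 trimethylation (H3K36me3) in mouse prefrontal cortex. Members were the protein-coding genes of the GENCODE annotation of GRCm38 whose symbol is Vmn2r followed by a number and that lie on chromosomes 1 to 19, which gave 119 of 20807 protein-coding genes. They lay on 7 chromosomes, with 51 members on chromosome 7, 31 on chromosome 17, 11 on chromosome 5, 9 on chromosome 6, 8 on chromosome 10, 7 on chromosome 3 and 2 on chromosome 14. Each member was read over a window of the gene body plus 5 kb on either side.

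The study asked whether intermittent ethanol in adolescence alters these marks in the prefrontal cortex of DBA/2J mice of both sexes. Mice received 4 g/kg ethanol (25% w/v) or water by gavage between postnatal days 29 and 42, and the cortex was dissected 24 h after dosing ended. Tissue of 3 mice was pooled for a sample, and 8 technical immunoprecipitations of a pool were combined. There were 6 ethanol and 5 water pools of males, and as many of females, which gave 22 libraries of each mark with an input library from the same pool. All groups shared the strain, and the tissue held all cell types of the prefrontal cortex together.

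Type 2 vomeronasal receptors are class C G protein-coupled receptors with a long extracellular domain, relatives of the metabotropic glutamate receptors. They are used by sensory neurons of the basal layer of the vomeronasal organ, which signal through Gnao1 and Trpc2 and detect peptide and protein pheromones, and most such neurons choose 1 or few receptor genes. H3K9me3 marks heterochromatin, including repeats and silent receptor gene clusters, whereas H3K36me3 is laid down along the bodies of transcribed genes. Of the 4 markers of vomeronasal sensory neurons listed, Omp, Trpc2 and Gng8 had no H3K9me3 island in any library, and they had an H3K36me3 island in 1, 7 and 6 of the 22 libraries. Gnao1, which cortical neurons use as well, had an H3K9me3 island in 22 and an H3K36me3 island in 21. Its H3K9me3 islands covered a median of 1.30% of the window, and their mean log2 ChIP over input was below 0, at -0.27.

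The deposited files list islands, which are stretches that SICER called from clustered ChIP reads and compared with the input, each with its ChIP reads, its input reads and the fold between them. H3K9me3 libraries listed 41364 to 72481 islands, with 5.73 to 14.2 M ChIP reads and 4.15 to 5.68 M input reads in them. H3K36me3 libraries listed 19618 to 61911 islands, with 1.70 to 4.80 M ChIP reads. Islands with a false discovery rate over 0.05 were listed too, and made up 7.43 to 56.3% of the H3K9me3 and 14.6 to 85.0% of the H3K36me3 islands of a library. The highest of these shares belonged to the H3K9me3 library of female water replicate 2 and the H3K36me3 library of male ethanol replicate 6, and the H3K9me3 library of male ethanol replicate 4 held most ChIP reads. Of the 8 markers of cortical neurons listed, Rbfox3, Map2 and Syt1 had an H3K36me3 island in 19, 18 and 18 libraries, Stmn2, Slc17a7, Camk2a and Snap25 in 8, 7, 7 and 3, and Nrgn in 0. Map2 was the 1 marker among these 8 with an H3K9me3 island in every library.

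Sequences from the starts of 3 members that had an H3K9me3 island on the promoter in 3 libraries (Vmn2r111) or in 0 (Vmn2r35 and Vmn2r2) are shown beside 1 start that was covered in all. The promoters, which run from 250 bases before to 50 bases after the start, are those of RefSeq on GRCm38.p6, where 114 promoters of 113 members were found. In Vmn2r111 and Vmn2r35 the 50 bases after the start begin with atg, so these may be starts of coding sequence. The RefSeq start of Vmn2r2 lay 4.45 kb downstream of its GENCODE start, so its stretch may not be the start of the gene. Whether an annotated start is that of transcription was not tested, and promoter here means this stretch only. Vmn2r111 had the highest H3K9me3 coverage of all members, Vmn2r35 the highest H3K9me3 ChIP over input and Vmn2r2 no H3K9me3 island in any library. Vmn2r29 is shown because its RefSeq start was the one start under an H3K9me3 island in all 22 libraries. Capitals mark CG and TATAAA, with TATAAA read on both strands.
Vmn2r111 promoter, chr17:22573224-22573523, minus strand: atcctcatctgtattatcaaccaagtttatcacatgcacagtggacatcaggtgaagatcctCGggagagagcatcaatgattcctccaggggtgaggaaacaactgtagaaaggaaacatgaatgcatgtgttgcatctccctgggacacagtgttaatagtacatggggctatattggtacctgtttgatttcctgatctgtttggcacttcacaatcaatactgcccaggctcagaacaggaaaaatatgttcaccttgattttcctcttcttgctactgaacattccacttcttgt
Vmn2r35 promoter, chr7:7819818-7820117, minus strand: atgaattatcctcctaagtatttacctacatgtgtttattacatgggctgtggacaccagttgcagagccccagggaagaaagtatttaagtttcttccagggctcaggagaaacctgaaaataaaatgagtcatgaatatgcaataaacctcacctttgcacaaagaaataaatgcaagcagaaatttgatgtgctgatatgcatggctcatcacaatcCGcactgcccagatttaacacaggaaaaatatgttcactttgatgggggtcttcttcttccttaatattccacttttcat
Vmn2r2 promoter, chr3:64137431-64137730, minus strand: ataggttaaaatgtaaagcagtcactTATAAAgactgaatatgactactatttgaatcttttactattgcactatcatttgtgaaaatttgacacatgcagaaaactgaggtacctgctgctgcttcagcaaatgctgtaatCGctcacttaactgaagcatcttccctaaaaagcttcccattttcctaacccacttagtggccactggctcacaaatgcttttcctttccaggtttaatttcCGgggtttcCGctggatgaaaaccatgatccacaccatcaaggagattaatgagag
Vmn2r29 promoter, chr7:7278240-7278539, minus strand: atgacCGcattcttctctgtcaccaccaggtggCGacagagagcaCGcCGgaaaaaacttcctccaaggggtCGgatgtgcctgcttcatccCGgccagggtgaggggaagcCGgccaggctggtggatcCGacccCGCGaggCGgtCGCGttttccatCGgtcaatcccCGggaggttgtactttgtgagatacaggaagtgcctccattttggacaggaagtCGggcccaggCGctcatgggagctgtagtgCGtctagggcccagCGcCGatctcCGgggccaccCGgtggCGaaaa
The central 300 bases of the longest stretch that lay under an H3K9me3 island in every library, within the body of Vmn2r111, are shown for comparison. The reference soft-masks 100% of these bases as repeat sequence, and they hold 0 CG. This stretch is printed in lower case throughout, with no motif marked.
Vmn2r111 island, chr17:22554751-22555050, plus strand: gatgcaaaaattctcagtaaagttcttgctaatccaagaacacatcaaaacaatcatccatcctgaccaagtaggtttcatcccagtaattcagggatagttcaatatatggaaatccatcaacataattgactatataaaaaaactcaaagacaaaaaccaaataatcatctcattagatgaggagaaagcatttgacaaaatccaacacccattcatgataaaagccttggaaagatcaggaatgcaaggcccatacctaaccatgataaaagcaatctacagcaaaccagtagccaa

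Vmn2r promoters, in the sense of these stretches at annotated starts, were poor in CG. The median promoter held 1 CG and 38% G and C bases, against 7 CG and 53% over the promoters of all genes. At least 1 CG was found in 71.1% of the Vmn2r promoters and in 94.8% of all promoters. TATAAA was found on either strand in 22.8% of Vmn2r promoters, against 42.4% of the promoters of Vmn1r, the type 1 vomeronasal receptor genes, and 41.1% of those of Olfr, the odorant receptor genes. It was found in 13.6% of all promoters. The Vmn2r29 promoter differed from the rest of the family with 23 CG, while no other Vmn2r promoter held more than 4.

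H3K9me3 was found on nearly every member. In each library 84.0 to 98.3% of members had an island in their window, with a median of 95.8%, and 95 of the 119 had one throughout. The share was 52.7 to 70.5% for Vmn1r, 38.7 to 71.8% for Olfr and 16.9 to 25.7% for other protein-coding genes. Longer windows are more likely to meet an island, and the median gene length was 27.2 kb for Vmn2r, 6.80 kb for Vmn1r and 5.99 kb for Olfr, so the covered share of the window was compared as well. Islands covered on average 14.5 to 38.3% of a Vmn2r window, with a median over libraries of 26.1%. The corresponding medians were 17.3% for Vmn1r, 11.7% for Olfr and 2.24% for other genes, and Vmn2r was the highest of the 4 in 22 of 22 libraries. The library of lowest Vmn2r coverage was female water replicate 2, and that of the highest was male ethanol replicate 4.

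**Figure D1:**
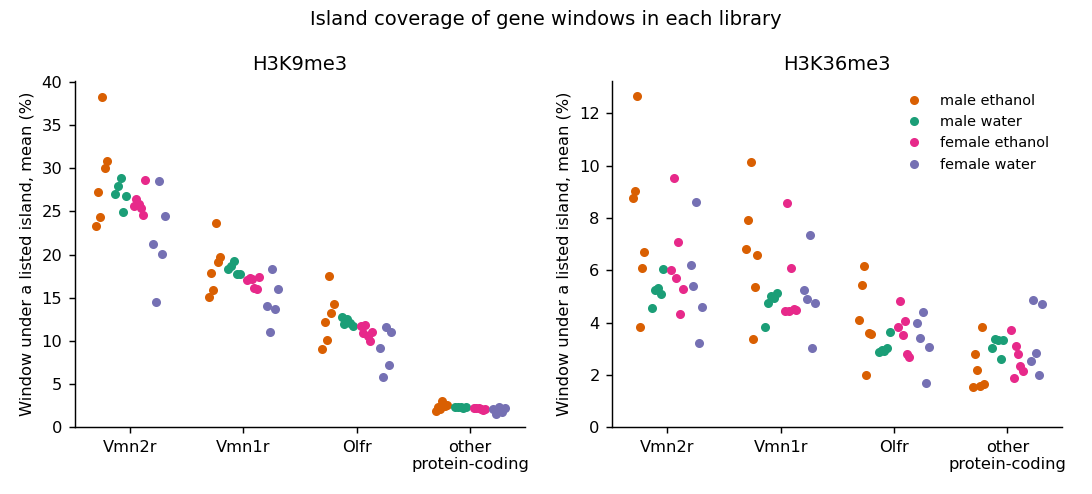
Mean share of gene windows under listed islands (%, vertical axis) for 4 gene families, with 1 point per library coloured by group, for H3K9me3 (left) and H3K36me3 (right). For H3K9me3 the 22 Vmn2r points sit between 14.5 and 38.3%, and the other genes between 1.59 and 3.02%.

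Members without the mark were few. Vmn2r2 had no H3K9me3 island in any library, and Vmn2r1 had one in 1 library. Vmn2r85, Vmn2r86 and Vmn2r88 had one in 7 libraries each, and the other 114 members in at least 11. With islands of a false discovery rate of 0.01 or lower, 77 members had one in all 22 libraries, and again 114 in at least 11.

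H3K36me3 was sparser on the same genes. Between 38.7 and 76.5% of members had an island per library, with a median of 58.4%, and islands covered 3.23 to 12.7% of a window. The median share with an island was 34.5% for other protein-coding genes, and Vmn2r was higher in 22 of 22 libraries. H3K36me3 islands met 19 members in every library, and with islands of a false discovery rate of 0.01 or lower this number was 0. The 19 are 15.97% of the members, against 7.37% of other protein-coding genes with an H3K36me3 island throughout. At the false discovery rate of 0.01 this order turned, with 0% of members and 0.41% of other genes. In at least 11 libraries, 75 of 119 members and 6562 of 19353 other genes had a listed island. At that false discovery rate the counts were 26 and 3862. The median gene length was 27.2 kb for Vmn2r and 19.6 kb for other protein-coding genes. Among genes with an island, the median over libraries of log2 ChIP over input was 0.32 for Vmn2r and 0.55 for other genes. Vmn2r was lower than other genes by that measure in all libraries but 5.

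Enrichment was measured as log2 of ChIP over input reads in a window's islands, scaled by each library's constant, and tested with limma in genes with an island in every library of the mark. For H3K9me3 all 95 members tested were called enriched at an adjusted p of 0.05 or lower, and so were 95.2% of all genes tested. Islands enter the list through high ChIP reads, so the size of the enrichment was compared. The median log2 ChIP over input was 0.92 over the 95 members and 0.52 over the 2792 genes tested. The other receptor families also lay above the median of all genes. Their medians were 0.76 over the 93 Vmn1r and 0.65 over the 307 Olfr genes tested, all of them called. Map2, the marker of cortical neurons that was tested, was also called, with 0.65. After each library was centred at the median of all genes, 86 of the 95 members lay above 0 at an adjusted p of 0.05 or lower, where 33.5% of all genes did. No member was called below 0, where 35.2% of genes were.

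The highest log2 ChIP over input of H3K9me3 was found in chromosome 7 cluster 2. Vmn2r35 (ENSMUSG00000096399.1, chr7:7786151-7819867, minus strand) had a log2 ChIP over input of 0.89 to 1.44 over the 22 libraries and a fitted mean of 1.199 (SE 0.031). Vmn2r50, Vmn2r46 and Vmn2r38 of the same cluster followed with fitted means of 1.19, 1.19 and 1.18. These 4 neighbours in rank differed by less than their standard errors of 0.031 to 0.038. The lowest were Vmn2r4 with 0.50 (SE 0.034), Vmn2r83 with 0.52 (SE 0.033), Vmn2r7 with 0.55 (SE 0.033) and Vmn2r77 with 0.55 (SE 0.042). Values of Vmn2r4 ran from 0.20 to 0.88, so its highest library stayed below the lowest library of Vmn2r35. In 93 of the 95 members the value was above 0 in every library, and the exceptions were Vmn2r84 and Vmn2r77, with lowest values of -0.02 each.

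Members were grouped in 16 clusters, counting as 1 cluster all members within 1 Mb of the next on a chromosome, and the clusters differed in both measures. The coverage of a cluster is the mean over its members in a library. It was highest in chromosome 7 cluster 3, which holds Vmn2r53 to Vmn2r56 (chr7:12562851-12735004) and had a median over libraries of 52.4%. Chromosome 17 cluster 2, from Vmn2r111 to Vmn2r117 (chr17:22544504-23479699), followed with 49.96%. The lowest were chromosome 14 cluster 1, with Vmn2r88 and Vmn2r89, at 6.12%, and chromosome 3 cluster 1 at 9.20%. The ranges over libraries of 39.3 to 66.5% and 39.9 to 62.8% for the 2 highest clusters did not overlap with those of the 2 lowest, which ran from 0 to 12.7% and from 5.33 to 14.2%. The 2 highest overlapped each other.

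Log2 ChIP over input ranked the clusters otherwise. Chromosome 7 cluster 4, from Vmn2r57 to Vmn2r63, had the highest median over its members, 1.13, followed by chromosome 7 cluster 2 (Vmn2r29 to Vmn2r52) with 1.09 and chromosome 17 cluster 1 (Vmn2r90 to Vmn2r110) with 1.01. Chromosome 7 cluster 3 had 0.86 and chromosome 17 cluster 2 had 0.91. Chromosome 7 cluster 5 (Vmn2r65 to Vmn2r79) had 0.70, chromosome 5 cluster 1 (Vmn2r8 to Vmn2r17) 0.95 and chromosome 6 cluster 1 (Vmn2r19 to Vmn2r27) 0.62. Across the 95 members, coverage and log2 ChIP over input had a rank correlation of 0.206, a description over genes that share libraries.

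The 7 members of chromosome 3 (Vmn2r1 to Vmn2r7, chr3:64081547-64844765) belong to a subfamily known for broad expression beside the other receptors. Their cluster had the lowest mean coverage among clusters of more than 2 members. Median coverage was 0% for Vmn2r1 and Vmn2r2, 6.48% for Vmn2r3, 11.8% for Vmn2r4, 3.82% for Vmn2r5, 14.6% for Vmn2r6 and 25.9% for Vmn2r7. Vmn2r4, Vmn2r6 and Vmn2r7 had an island in all 22 libraries, and their mean log2 ChIP over input was 0.50, 0.59 and 0.55.

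The input reads differed along the same lines. Input reads per kb of H3K9me3 island were divided by a median of the library. It was taken over all genes with such an island in all 22 libraries. The median over the 95 members was 0.737, from 0.528 for Vmn2r98 to 1.05 for Vmn2r84, and 49 of the 95 lay under 0.75, which is 51.6%. By the same rule, this share was 31.2% for Vmn1r, 13.7% for Olfr and 5.49% for other protein-coding genes. The medians of these 3 sets were 0.868, 0.895 and 1.03. The lowest densities, in input reads per kb of island, were 12.9 for Vmn2r98, 14.4 for Vmn2r46 and 14.5 for Vmn2r100, and the highest 26.0 for Vmn2r84, 24.5 for Vmn2r27 and 24.4 for Vmn2r87. By cluster, over all its members with an island, the median relative density was 0.632 in chromosome 7 cluster 4, 0.683 in chromosome 7 cluster 2 and 0.684 in chromosome 17 cluster 1, the 3 clusters with the highest log2 ChIP over input. Across the 95 members, relative input density and H3K9me3 log2 ChIP over input had a rank correlation of -0.890, and input reads are the denominator of the second. DBA/2J reads were mapped to the GRCm38 reference, and uniquely mapped reads alone were kept, so near-identical members lose reads. The part of either in these values was not tested.

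**Figure D2:**
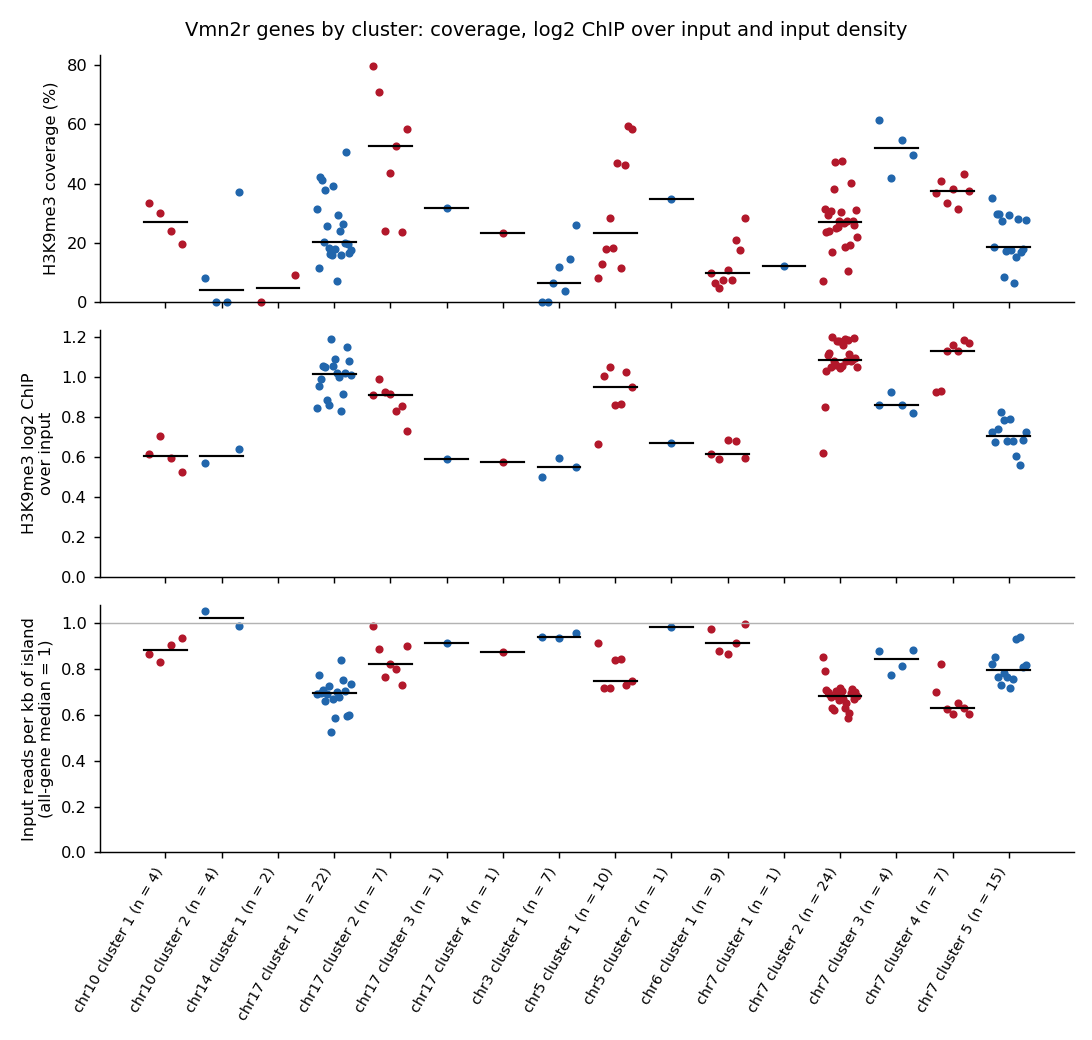
Median H3K9me3 coverage over 22 libraries (%, top), mean log2 ChIP over input (middle) and relative input reads per kb of island (bottom) of each member. The all-gene median of the bottom axis is that of genes with an island in every library. Clusters run along the horizontal axis, with 1 point per member, colours that alternate between clusters and a line at the median of the points. The middle and bottom panels hold the 95 members with an island in every library, and the 3 clusters with the lowest input density have the highest log2 values.

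The 19 members with islands of both marks in every library were compared within pools. H3K9me3 exceeded H3K36me3 in 19 of 19 at an adjusted p of 0.05 or lower (limma), where 74.5% of the 1377 genes tested differed in either direction and 891 of 1026 called genes were higher for H3K9me3. The median difference was 0.53 on the log2 scale for the members and 0.16 for all genes. Over the 19 it was largest in Vmn2r58 (0.66, SE 0.051), Vmn2r91 (0.66, SE 0.050) and Vmn2r111 (0.65, SE 0.037), which did not differ beyond their standard errors, and smallest in Vmn2r7 (0.31, SE 0.043). Vmn2r91 falls outside the rule for named members and was chosen after its value was seen.

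For H3K36me3 alone, 19 of 19 members tested were called enriched, where 94.9% of 1503 genes were, with a median log2 ChIP over input of 0.27 for members and 0.32 for all genes. Centred at the median of all genes, 4 of the 19 had a value above 0. At an adjusted p of 0.05 or lower, 0 of the 19 were called above 0, where 25.9% of genes were. By the same threshold 5 were called below 0, where 24.6% of genes were. The highest fitted means were those of Vmn2r13 with 0.38 (SE 0.056), Vmn2r112 with 0.34 (SE 0.048) and Vmn2r114 with 0.33 (SE 0.040). The lowest were Vmn2r18 with 0.13 (SE 0.044), Vmn2r84 with 0.21 (SE 0.045) and Vmn2r53 with 0.21 (SE 0.044). Neighbours in this order differed by less than their standard errors, apart from Vmn2r18. Over all 119 members, the mean coverage by H3K9me3 and by H3K36me3 had a rank correlation of 0.681, with both marks read against the same input of a pool.

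**Figure D3:**
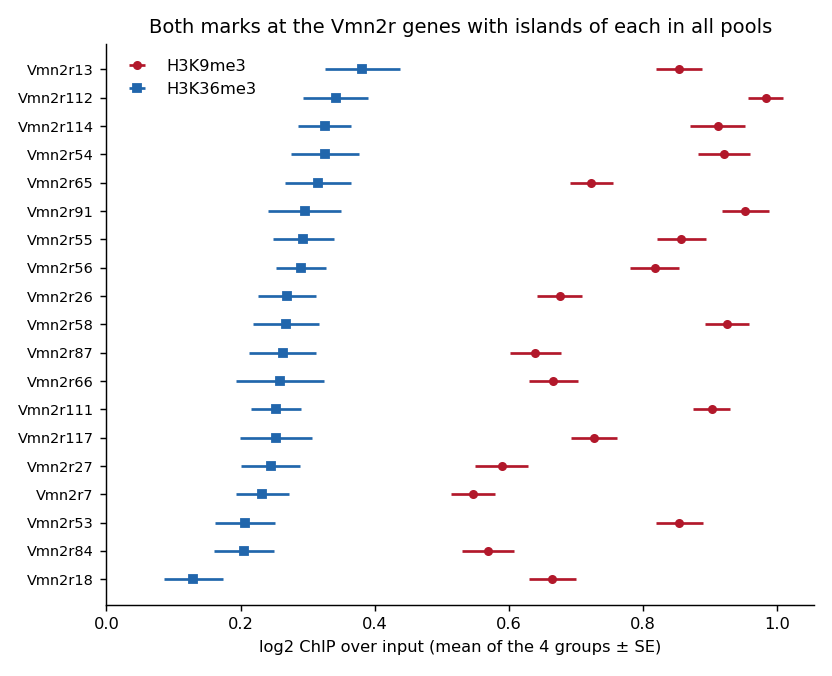
Fitted log2 ChIP over input (horizontal axis, mean of the 4 groups, bars ± SE) of H3K9me3 (circles) and H3K36me3 (squares) for the 19 members with islands of both marks in all pools. H3K9me3 lies to the right for 19 of 19, and H3K36me3 runs from 0.13 for Vmn2r18 to 0.38 for Vmn2r13.

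H3K9me3 islands flanked the gene starts and did not cover them. Between 5 and 3 kb upstream of the start, the share of Vmn2r bases under an island had medians of 50.5% (5 to 4 kb) and 49.5% (4 to 3 kb) over libraries. It fell to 22.97% between 2 and 1 kb upstream, 3.92% in the last kb and 2.47% in the first kb of the gene, and then climbed to 20.5% between 5 and 6 kb into the gene. The lowest library between 4 and 3 kb upstream, at 32.9%, exceeded the highest in the first kb, at 8.92%. Of the 119 GENCODE starts, taken from 250 bases before to 50 bases after, 96 had no H3K9me3 island in any library and 0 had one in 11 or more. Vmn1r and Olfr had a dip of the same kind, to 3.93 and 0.983% in the first kb, from 25.5 and 22.1% between 4 and 3 kb upstream. Other protein-coding genes also dipped, to 0.905% from 2.36%, so a dip is not particular to the receptor families.

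**Figure D4:**
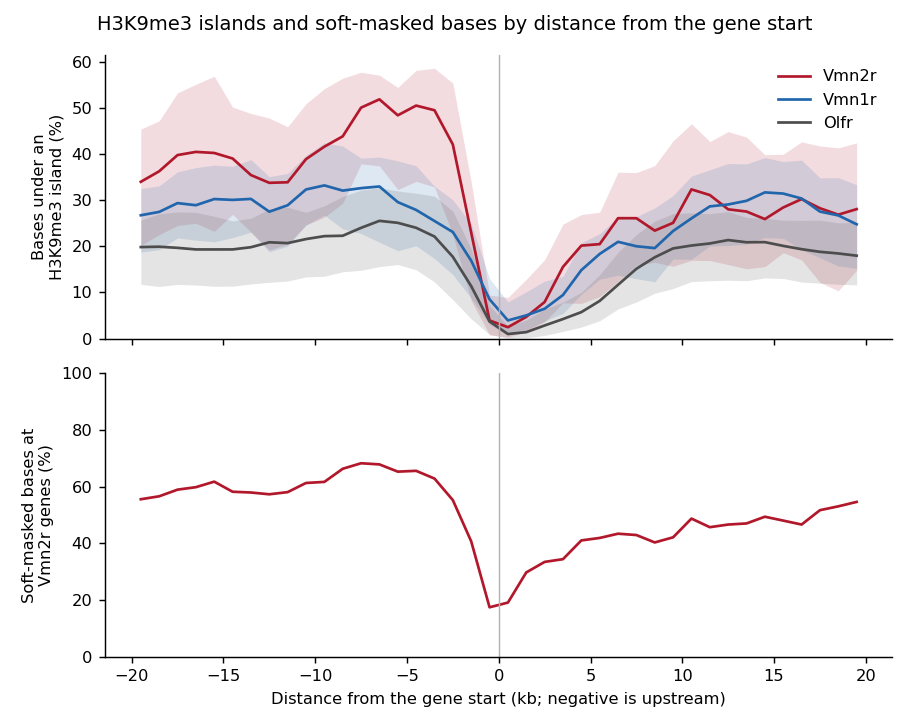
Share of bases under an H3K9me3 island (%, top) in 1 kb bins from 20 kb upstream to 20 kb downstream of the gene start for 3 receptor families, with a line at the median and a band from the lowest to the highest of 22 libraries, and share of soft-masked bases at Vmn2r genes (%, bottom). The Vmn2r line falls from 49.5% between 4 and 3 kb upstream to 2.47% in the first kb, and the soft-masked share is lowest beside the start, at 17.4%.

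RefSeq starts gave a like picture with 3 exceptions. Of the 114 promoters, 94 began within 0.25 kb of the GENCODE start and 13 more than 1 kb away. No H3K9me3 island met 90 of them in any library, and 3 were met in 11 or more. Vmn2r29 was met in 22 libraries at a RefSeq start 31.0 kb upstream of the GENCODE one, and its promoter also lay under H3K36me3 islands in 19. Vmn2r17 was met in 18 and Vmn2r54 in 13, at RefSeq starts 0.325 and 4.19 kb downstream of the GENCODE ones. Vmn2r111, with the highest coverage of all members at a median of 79.6%, had an island on its promoter in 3 libraries, and Vmn2r35 in 0.

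Islands lay in introns and flanks more than in exons. The median coverage over libraries was 15.6% for exons, 28.3% for introns, 33.7% for the 5 kb upstream and 34.2% for the 5 kb downstream, and exons were below introns in 22 of 22 libraries. Within the member windows, 75.7% of the bases inside H3K9me3 islands were soft-masked as repeats and 36.7% of those outside (medians over libraries), and the share was higher inside in 22 of 22. For H3K36me3 islands the shares were 86.1 and 44.9%. The soft-masked share by distance followed the islands, with 62.8% between 4 and 3 kb upstream, 17.4% in the last kb before the start and 19.1% in the first kb of the gene. Across the 119 members, H3K9me3 coverage and the soft-masked share of the window had a rank correlation of 0.642.

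A stretch under H3K9me3 islands of all 22 libraries was found 227 times, in the windows of 84 of the 119 members. These stretches summed to 294 kb with a median length of 1000 bases, 91.5% of it soft-masked, and 136 lay within genes, 56 upstream and 35 downstream. The longest ran over 5800 bases within Vmn2r111 (chr17:22552001-22557800), followed by 5000 bases within Vmn2r53 (chr7:12588801-12593800) and 4200 within Vmn2r7 (chr3:64806201-64810400). For H3K36me3 there were 12 such stretches in the windows of 11 members, the longest over 2200 bases within the Vmn2r53 stretch (chr7:12589201-12591400), and 99.8% of their bases were soft-masked.

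Other genes of the vomeronasal pathway were read in the same way. Of the 18 ligand genes listed, 7 were tested and 7 called for H3K9me3 enrichment, where 95.2% of all genes tested were called. Esp34, of the exocrine gland peptides detected by these receptors, was covered over 85.4 to 100% of its window, with a median of 92.1%. Esp3 had a median of 53.3%, Esp24 of 48.1% and Esp36 of 33.7%. The other Esp genes listed were covered less. Esp1, Esp6 and Esp38 had islands in 5 of 22 libraries each, with medians of 0%. Esp4, Esp8, Esp15, Esp16, Esp18 and Esp22 had islands in 15 to 21 libraries, with medians from 7.26 to 19.6%. The major urinary protein genes Mup4, Mup5 and Mup21 had islands in all 22 libraries, with medians of 23.8, 15.8 and 26.8%.

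The formyl peptide receptor Fpr-rs3, another vomeronasal receptor, had islands in all 22 libraries, with a median coverage of 13.4%. Of the H2-M class Ib genes, whose products accompany some type 2 receptors at the cell surface, H2-M1 had islands in 22 libraries (27.8%), while H2-M11, H2-M10.2, H2-M10.5 and H2-M10.6 had none. Of the 8 transducers, 2 were tested for H3K9me3 enrichment and 1 was called against the same 95.2%, the chloride channel Ano2, with a median coverage of 1.70%. Gnb1, Gng8, Plcb2 and Trpc2 had no H3K9me3 island in any library. Gnao1, which is also used in cortex, was tested and not called, with a median coverage of 1.30% and a mean log2 ChIP over input of -0.27. The class C relatives Grm3, Grm5, Grm7 and Grm8 had islands in all 22 libraries over medians of 4.47 to 4.58% of their windows. The taste receptors Tas1r1, Tas1r2 and Tas1r3 had no H3K9me3 island. In males, 1 of 12 ligands tested (Esp3) and 1 of 3 other vomeronasal receptors (Fpr-rs4) were called higher with ethanol for H3K9me3 at the unadjusted threshold, where 2.84% of all genes were called. For H3K36me3 in males, 1 of 5 class C relatives tested (Grm5) was called, where 11.4% of all genes were. In females none of the genes tested in these lists was called.

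Ethanol and water pools were then compared within each sex, on ChIP reads per window with edgeR's quasi-likelihood test, in genes with an island in every library of the fit. A call is an unadjusted p of 0.05 or lower, the threshold of the study, and after Benjamini-Hochberg adjustment over all genes 0 members were called in any comparison of treatments or sexes, by edgeR or by DESeq2. With DESeq2 the unadjusted counts were 13 for H3K9me3 in females, 8 for H3K9me3 in males, 4 for H3K36me3 in males and 1 for H3K36me3 in females. The edgeR counts at the unadjusted threshold follow. Nothing says that pools of a group came from separate experiments, so a p measures the spread between pools. ChIP reads of a window grow with the length of its islands, so input reads of the same islands are given beside most named results. Coverage of the window is given for most of those on ethanol against water.

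For H3K9me3 in females, 12 of 97 members tested were called, 11 of them higher in ethanol pools, where 4.34% of 2925 genes were called. The median log2 change was 0.19 over the members and 0.00 over all genes, and 80 of 97 were above 0. The same test on input reads gave a median of 0.12, and ChIP over input reads, centred in each library, gave 0.05. Mean coverage of the family was 24.6 to 28.7% in ethanol pools with a median of 25.8%, and 21.3, 14.5, 28.5, 20.1 and 24.5% in water pools 1 to 5, so the groups overlapped. The count was 6 over gene bodies alone, 5 with islands of a false discovery rate of 0.01 or lower, 7 for centred ChIP over input and 22 without female water replicate 3.

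Vmn2r93 (ENSMUSG00000079698.7, chr17:18298099-18331914, plus strand) had the smallest p. Its H3K9me3 CPM, the reads of the window scaled to the reads of all genes tested, were 212 to 273 in female ethanol pools with a median of 238, and 153, 133, 205, 166 and 177 in water pools. No ethanol pool was as low as any water pool. The log2 change was 0.53 (SE 0.12, unadjusted p = 0.000617, adjusted p = 0.956). Its input reads changed by 0.45 (unadjusted p = 0.00436) and its islands covered 34.2 to 44.3% of the window in ethanol and 19.4 to 30.4% in water pools. Centred ChIP over input reads changed by 0.09 (unadjusted p = 0.334). In males its CPM were 216 to 289 with ethanol, median 250, and 182, 237, 223, 201 and 197 with water, which overlap, for a log2 change of 0.27 (SE 0.10, unadjusted p = 0.0192, adjusted p = 1.00). Without male ethanol replicate 4 the unadjusted p was 0.0517, and without male water replicate 1 it was 0.0544.

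Vmn2r71 (chr7:85563087-85624680) had 147 to 217 H3K9me3 CPM in female ethanol pools, median 169, and 95.6, 81.2, 136, 79.3 and 155 in water pools. The groups overlapped through water pool 5. Its log2 change was 0.68 (SE 0.19, unadjusted p = 0.00308, adjusted p = 0.956), with 0.58 for input reads and 0.09 for centred ChIP over input. Its islands covered 16.5 to 24.1% of the window in ethanol and 6.70 to 17.4% in water pools. Vmn2r39 (chr7:9013806-9030798) had 107 to 134, median 127, against 82.6, 98.8, 109, 85.6 and 81.3, overlapping through water pool 3. Its log2 change was 0.42 (SE 0.13, unadjusted p = 0.00544, adjusted p = 0.956). Its input reads changed by 0.23 (unadjusted p = 0.211) and centred ChIP over input by 0.21 (unadjusted p = 0.0338), with coverage of 26.6 to 33.3% in ethanol and 15.5 to 25.9% in water pools.

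In males, 8 of 107 members tested for H3K9me3 were called, 7 higher with ethanol, where 2.84% of 3312 genes were called and 69 of those 94 were higher. The median log2 change was 0.08 over members, with 0.05 for input reads and 0.02 for centred ChIP over input. Family coverage was 23.3 to 38.3% in ethanol pools, median 28.7%, and 27.0, 27.9, 28.8, 25.0 and 26.8% in water pools, which lay inside the ethanol range. The count was 5 over gene bodies alone, 3 with islands of a false discovery rate of 0.01 or lower, 3 for input reads and 4 for centred ChIP over input. It was 3 without male ethanol replicate 4, 3 without male water replicate 1 and 4 without male water replicate 2.

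Vmn2r92 (chr17:18151887-18188886), the neighbour of Vmn2r93, had 276 to 318 H3K9me3 CPM in male ethanol pools, median 313, and 217, 208, 298, 225 and 266 in water pools. Only water pool 3 reached into the ethanol range. The log2 change was 0.33 (SE 0.10, unadjusted p = 0.00386, adjusted p = 1.00), with 0.28 for input reads and 0.06 for centred ChIP over input. Coverage was 39.6 to 59.1% in ethanol and 32.8 to 48.9% in water pools, which overlap. Vmn2r28 (chr7:5477255-5493956) was the called member that was lower with ethanol, with 20.3 to 55.2 CPM, median 30.0, against 32.9, 49.2, 53.0, 59.2 and 69.5. The groups overlapped. Its log2 change was -0.70 (SE 0.28, unadjusted p = 0.0236, adjusted p = 1.00), its input reads changed by -0.76, and centred ChIP over input by 0.04. Its coverage was 3.75 to 17.8% in ethanol and 7.49 to 16.5% in water pools. For Vmn2r28 the unadjusted p was 0.0502 without male ethanol replicate 6 and 0.0692 without male water replicate 5.

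**Figure D5:**
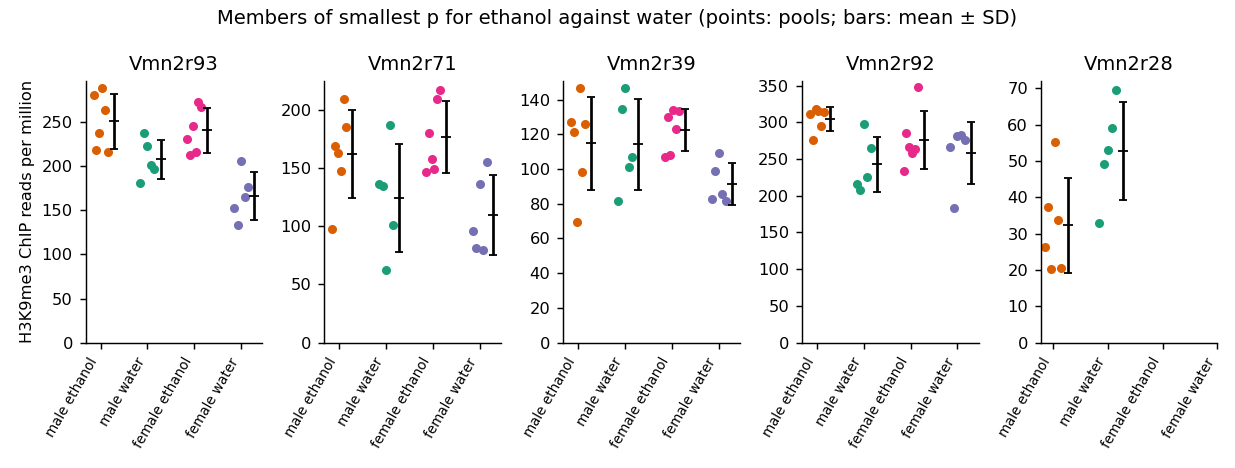
H3K9me3 CPM (vertical axis, after TMM scaling within each sex) of the 5 members of smallest p for ethanol against water, with 1 point per pool and bars at the mean ± SD of each group. Female ethanol pools of Vmn2r93 lie between 212 and 273 and female water pools between 133 and 205, and Vmn2r28 has no female points because 1 female pool had no island.

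For H3K36me3 in males, 4 of 24 members tested were called, all higher with ethanol, where 11.4% of 1742 genes were called and 90 of the 199 were higher. The median log2 change over members was 0.31, with 0.22 for input reads and 0.06 for centred ChIP over input. The count was 2 on input reads and 2 for centred ChIP over input. Family coverage was 3.85 to 12.7% in ethanol pools, median 7.74%, and 4.58 to 6.06% in water pools. Vmn2r13 (chr5:109152940-109192199) had 166 to 379 CPM with ethanol, median 217, and 135, 98.3, 160, 188 and 80.5 with water, where water pool 4 overlapped, for a log2 change of 0.85 (SE 0.27, unadjusted p = 0.00724, adjusted p = 0.301). Its islands covered 20.0 to 42.8% of the window in ethanol and 8.24 to 21.6% in water pools, its input reads changed by 0.76 and centred ChIP over input by 0.02.

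Vmn2r66 (chr7:84985366-85012268) had 36.7 to 109 H3K36me3 CPM in male ethanol pools, median 71.6, and 13.9, 52.6, 23.6, 57.7 and 15.8 in water pools, of which pools 2 and 4 overlapped with the ethanol range. Its log2 change was 1.17 (SE 0.40, unadjusted p = 0.00981, adjusted p = 0.323). Its input reads changed by 0.91 and centred ChIP over input by 0.34 (unadjusted p = 0.0467), and its median coverage was 10.9% in ethanol and 2.80% in water pools, with overlap. Vmn2r111 (chr17:22544504-22573482) had 286 to 549, median 445, against 245, 336, 313, 282 and 253, with overlap. Its log2 change was 0.58 (SE 0.20, unadjusted p = 0.0124, adjusted p = 0.333), with 0.40 for input reads and 0.18 for centred ChIP over input. Its coverage was 40.5 to 78.2% in ethanol and 30.3 to 47.7% in water pools, which overlap.

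For H3K36me3 in females, 1 of 27 members tested was called, where 4.15% of 2095 genes were. The count was 4 without female ethanol replicate 6, 3 without female water replicate 1, and 2 without female ethanol replicate 2, female ethanol replicate 5 or female water replicate 4. It was 0 over gene bodies alone, with islands of a false discovery rate of 0.01 or lower and for centred ChIP over input, and 2 for input reads or without TMM factors, edgeR's scaling of library sizes. The member called with all pools was Vmn2r102 (chr17:19660328-19709533), with 67.0 to 139 CPM in ethanol pools, median 98.4, and 95.5, 35.1, 46.1, 31.3 and 40.7 in water pools. Water pool 1 lay inside the ethanol range. The log2 change was 0.99 (SE 0.32, unadjusted p = 0.00684, adjusted p = 0.941). Input reads changed by 1.03 and centred ChIP over input by -0.13, and coverage was 7.09 to 11.8% in ethanol and 1.69 to 8.45% in water pools. Family coverage was 4.35 to 9.52% in ethanol pools, median 5.87%, and 3.23 to 8.62% in water pools. For the family, the median log2 change was 0.22, with 0.22 for input reads and 0.03 for centred ChIP over input.

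Whether the response differed between sexes was tested as an interaction in genes that had an island in every library of the mark. In the H3K9me3 fit 6 of 95 members were called, where 3.65% of 2792 genes were, and 0 after adjustment. The count was 2 over gene bodies alone and 3 on input reads. Vmn2r84 (chr10:130377925-130394332) had the smallest p. The female minus male difference in log2 change was -0.79 (SE 0.28, unadjusted p = 0.00928, adjusted p = 0.999), from -0.51 in females and 0.27 in males. For input reads the difference was -0.86, and for centred ChIP over input it turned to 0.11 (unadjusted p = 0.309). For Vmn2r90 (chr17:17703747-17735156) the difference was 0.64 (SE 0.26, unadjusted p = 0.0205, adjusted p = 0.999), from 0.59 in females and -0.06 in males. Input reads gave 0.79, and centred ChIP over input turned to -0.15 (unadjusted p = 0.224). Female water pools of Vmn2r90 had 113, 45.5, 180, 108 and 126 CPM, and female water replicate 2 was the lowest. Without that library the difference was 0.45 (unadjusted p = 0.0105).

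For H3K36me3, 1 of 19 members was called for treatment by sex, where 5.66% of 1503 genes were. The count was 2 with DESeq2, over gene bodies alone or without TMM factors, and 0 for centred ChIP over input. Vmn2r7 had a difference of -0.61 (SE 0.27, unadjusted p = 0.0335, adjusted p = 0.770), from -0.23 in females and 0.35 in males. Input reads gave -0.63, and centred ChIP over input turned to 0.052 (unadjusted p = 0.587). Vmn2r58 came next with -0.97 (SE 0.48, unadjusted p = 0.0562), which did not pass the threshold.

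Females and males were compared over both treatments. For H3K9me3, 9 of 95 members were called, 8 of them lower in females, where 7.95% of 2792 genes were called and 126 of those 222 were lower. The median log2 difference over members was -0.10, with -0.08 for input reads and -0.02 for centred ChIP over input. The count was 5 without female water replicate 2 and 3 with islands of a false discovery rate of 0.01 or lower. Vmn2r109 (chr17:20539969-20564756) had the smallest p, with a log2 difference of -0.71 (SE 0.22, unadjusted p = 0.00297, adjusted p = 0.372). Its islands covered 15.04 to 40.3% of the window in male pools and 3.54 to 21.9% in female pools, which overlap. Vmn2r80 (chr10:79148769-79195012) had -0.32 (SE 0.10, unadjusted p = 0.00484, adjusted p = 0.402). Input reads differed by -0.66 for Vmn2r109 and by -0.31 for Vmn2r80, and centred ChIP over input by -0.09 and -0.02.

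For H3K36me3, 2 of 19 members were called between sexes, both lower in females, where 2.79% of 1503 genes were called. The log2 difference was -0.48 (SE 0.19, unadjusted p = 0.0171) for Vmn2r13 and -0.37 (SE 0.17, unadjusted p = 0.0449) for Vmn2r111, with an adjusted p of 0.999 each. Without TMM factors 0 members were called, with an unadjusted p of 0.0874 for Vmn2r13 and 0.2245 for Vmn2r111, and with missing islands as 0 the count was 1, Vmn2r111 having an unadjusted p of 0.0802. Input reads differed by -0.47 for Vmn2r13 and -0.33 for Vmn2r111, and centred ChIP over input by -0.00 (unadjusted p = 0.993) and -0.04 (unadjusted p = 0.606). Both were members called higher with ethanol in males, and the comparison of sexes holds the same male ethanol pools.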

How the data were processed

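Chromatin immunoprecipitation sequencing of H3K9me3 and H3K36me3 was read from the island lists of 44 libraries (22 per mark). The authors mapped reads to GRCm38 (mm10) and called islands against the input of the pool with SICER, and the submitters' processing notes name cutadapt, FastQC and Bowtie2 2.4.1. The authors kept uniquely mapped reads and removed those in blacklisted regions, so sequence shared by near-identical members loses reads in ChIP and input alike. The deposited columns are raw counts of ChIP and of input reads per island, a p-value and a false discovery rate (q-value), and a fold (the ratio of ChIP to input counts divided by a constant of each library). The 22 pools share their input counts between marks, since all 21272 islands with the same boundaries in both had equal input counts. No pair of libraries agreed within sampling noise, and the lowest chi-square per degree of freedom over 231 pairs was 8.90 for H3K9me3 and 15.5 for H3K36me3.

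Genes came from GENCODE release M21. Each island's length and reads were apportioned to a window of the gene body plus 5 kb by the overlapped share. The windows of 14 members overlapped that of another member and shared its islands, and those of 7 overlapped another protein-coding gene. Counts were rounded and tested in edgeR 4.0.16 (quasi-likelihood, TMM, filterByExpr) over all autosomal protein-coding genes with an island in every library of the fit. Log2 ChIP over input used a pseudocount of 0.5 reads and limma 3.58.1, with DESeq2 1.42.0 as an alternative, in R 4.3.3. Adjusted p-values are Benjamini-Hochberg over all genes tested. The fits were checked on simulated data. Named members are up to 3 called members of smallest p per mark and sex, the 2 of smallest p for each interaction and sex contrast, the extremes of log2 ChIP over input and of input density, Vmn2r1 to Vmn2r7 and the ends of clusters. The members and lists were chosen with earlier results of these data known. Sequences are those of RefSeq on GRCm38.p6. Among the 95 members tested, the reads behind a window ran from 1.02 (apportioned) to 3121 ChIP reads in a library, and counting error is largest for the low ones. Alternatives were a gene body without flanks, islands at a false discovery rate of 0.01, no TMM factors, no count filter, another pseudocount, input reads in place of ChIP reads, centred ratios, the replicate number as a block and each pool left out in turn. Those on input reads and the omission of libraries in the fits over both sexes were chosen after seeing the data.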

Additional observations from a re-analysis of the deposited data

Results flagged for a closer look

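Of 36 groups of pools checked for a value far from the rest, 1 held such a value, and chance flags about 1 in 20 groups. In female water pools, Vmn2r102 had 95.458 H3K36me3 CPM in replicate 1 and 31.3 to 46.1 in the others, so that the gap took 0.77 of the range. The response to ethanol differed between sexes by the interaction test at an unadjusted p of 0.05 or lower, and not after adjustment, in 3 named members. The female minus male difference in log2 change was -0.6119 for H3K36me3 at Vmn2r7, -0.7878 for H3K9me3 at Vmn2r84 and 0.6438 for H3K9me3 at Vmn2r90. For centred ChIP over input all 3 changed sign, to 0.052 for Vmn2r7, 0.11 for Vmn2r84 and -0.15 for Vmn2r90.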

How the results depend on the processing

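Coverage of the family by H3K9me3 kept within 25.9 to 26.4% when each library was left out, and that by H3K36me3 within 5.72 to 6.02%, but islands at a false discovery rate of 0.01 gave 1.74% for H3K36me3. The share of members with an H3K9me3 island was 84.0% over gene bodies alone and 7.56% where at least 50% of the window had to be covered. For H3K36me3 it was 40.8% and 0%, and 29.0% at a false discovery rate of 0.01 (57.1 to 59.7% leaving out each library). Fewer members could be tested over gene bodies alone, where 60 were called for H3K9me3 ChIP over input, and centring left 0 called above 0 for H3K36me3, with 5 below. For ethanol in females, H3K9me3 members called were 6 over gene bodies, 5 at the false discovery rate of 0.01 and 7 for centred ratios, and 10 to 22 when each pool was left out, with 22 without female water replicate 3. For ethanol in males they were 5, 3 and 4 in the same order, 3 for input reads, and 3 to 11 when each pool was left out. For H3K36me3 in females they were 0 over gene bodies, at the false discovery rate of 0.01 and for centred ratios, 2 for input reads and without TMM factors, and 1 to 4 when each pool was left out, with 4 without female ethanol replicate 6, 3 without female water replicate 1 and 2 without female ethanol replicate 2, female ethanol replicate 5 or female water replicate 4. For H3K36me3 in males they were 2 for input reads and 2 for centred ratios (3 to 5 when each pool was left out). Between sexes, 3 were called for H3K9me3 at the false discovery rate of 0.01 and 5 without female water replicate 2, and for H3K36me3 1 with missing islands as 0 and 0 without TMM factors. For treatment by sex, H3K9me3 gave 2 over gene bodies and 3 for input reads, and H3K36me3 gave 2 with DESeq2, 2 over gene bodies, 2 without TMM factors and 0 for centred ratios. Centred ratios turned the direction of 5 named values, to -0.13 for Vmn2r102, 0.052 for Vmn2r7, 0.043 for Vmn2r28, 0.11 for Vmn2r84 and -0.15 for Vmn2r90, and the cause was not tested. Of 104 values of named members under planned settings, those 5 included, 75 kept direction and side of the threshold, 21 lost the call and 3 gained it. Of 114 values with a pool left out, 110 kept both. At a false discovery rate of 0.01 no member was left to test for H3K36me3 in males, between sexes, for treatment by sex, over input, or against H3K9me3, so those were not run.

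Replicate numbers are shared between groups, but 0 of 5 pairs in each mark and sex had deviations correlated over 0.1 (-0.42 to 0.08 over all), so the numbers were not taken to pair pools. With the replicate block, ethanol against water gave 11 H3K9me3 members in females, 4 in males, and 1 and 4 H3K36me3 members in females and males.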

Other observations

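The annotation holds 116 further genes on chromosomes 1 to 19 whose symbol starts with Vmn2r but that are not members, most of them annotated as pseudogenes and 2, Vmn2r-ps159 and Vmn2r-ps130, as protein-coding. Their coverage differed by chromosome, in a split made after seeing the data. The 92 on chromosomes that also hold members had a median over libraries of 24.0% for their mean H3K9me3 coverage, against 26.1% for the members, and the members were higher in 22 of 22 libraries. For H3K36me3 their median was 4.89% against 5.87%, and the members were higher in 20 of 22. The other 24, most of them on chromosomes 4 and 13, had a median of 55.3% for H3K9me3 and 34.7% for H3K36me3, and the members were higher in 0 of 22 for either mark. Over all 116 the medians were 30.3% and 10.8%, above those of the members in 22 of 22 libraries, an order that turns without these 24 in all libraries for H3K9me3 and in 20 for H3K36me3. Vmn2r-ps20 (chr4:147521531-147521912) had the highest medians, 100% for H3K9me3 and 84.3% for H3K36me3. Window length was not matched in these values.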
